A study of Mus musculus with 3 samples.

Results

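The 10 genes described here carry MHC class I antigen presentation, and they were taken by gene symbol from the 39179 genes of the deposited table. They are the class I heavy chain genes H2-K1 and H2-D1, the light chain gene B2m, the peptide transporter genes Tap1 and Tap2, the tapasin gene Tapbp, the immunoproteasome genes Psmb8, Psmb9 and Psmb10, and Nlrc5. All 10 were found. They were selected on the strength of their levels in the same 3 libraries, so that every difference below is a description and none was tested.

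The data are RNA-seq values from E14tg2a cells, a male mouse embryonic stem cell (ESC) line, grown in serum with LIF on gelatin-coated plates. One library was made per condition, with the titles WT, Zfp198_KO and Zfp198_OE, where Zfp198 is an older name of Zmym2, which codes for a zinc finger protein that binds NANOG. WT is the parental line. KO is a clone in which Cas9 disrupted both Zmym2 alleles, and OE carries a Zmym2 transgene integrated stably with PiggyBac. All of them had the same medium and plates, and no library of empty-vector cells was used here, so transgene, transfection and selection cannot be told apart in OE, nor clone and deletion in KO.

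The line descriptions of the KO and OE libraries are exchanged relative to their titles, and the titles were followed. Zmym2 stood at 7956 normalised counts in the library titled WT, 4370 in that titled KO and 57139 in that titled OE. The ratio to WT was 7.18 in OE (95% counting interval 7.02 to 7.35) and 0.549 in KO (0.529 to 0.570). The order of the Zmym2 levels thus followed the titles and not the line descriptions. The KO ratio was close to the median of 0.567 for 185 genes between 50 and 80 Mb of chromosome 14, the segment in which Zmym2 lies, so it is no separate check of the disruption. KO and OE below mean the libraries so titled. Hprt, which E14tg2a cells lack as a working gene, was at 12.3, 9.09 and 17.6 normalised counts in WT, KO and OE. The libraries held between 41840774 and 50120551 reads in genes. With 1 library per condition there is no replicate error. Intervals cover counting error only, and levels are counts divided by the authors' size factors.

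MHC class I molecules show fragments of the cell's own proteins to cytotoxic T cells and natural killer cells. The proteasome cuts the proteins, the TAP transporter moves the peptides into the endoplasmic reticulum, and tapasin helps to load them onto the heavy chain and beta-2-microglobulin. Interferon gamma induces the pathway in many cell types, partly through NLRC5, a coactivator that acts on an assembly of factors at class I promoters. ESCs are known for low class I levels at the surface.

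Promoter sequences are given first because the heavy chain, light chain, transporter and immunoproteasome genes are known for shared control elements. They are RefSeq windows of GRCm38.p6, cut to the bases before the annotated start, and 8 of the 10 genes had an entry. Capitals mark matches to the motifs searched: the interferon regulatory factor (IRF) element GAAANNGAAA, the STAT palindrome TTCNNNGAA, the CRE half-site TGACG, the CCAAT box and the NF-kB consensus, on both strands. The B2m run lies at chr2:122147487-122147686 (plus strand), H2-K1 at chr17:34000348-34000547 (minus strand), H2-D1 at chr17:35262894-35263093 (plus strand) and Psmb8 at chr17:34197995-34198194 (plus strand). The 225 bases between the divergent starts of Tap1 and Psmb9 lie at chr17:34187331-34187555 and are written on the Tap1 strand.
B2m: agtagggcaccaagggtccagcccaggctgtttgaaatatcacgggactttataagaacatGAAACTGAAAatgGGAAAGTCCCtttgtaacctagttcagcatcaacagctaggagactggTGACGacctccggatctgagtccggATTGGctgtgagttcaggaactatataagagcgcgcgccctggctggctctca
H2-K1: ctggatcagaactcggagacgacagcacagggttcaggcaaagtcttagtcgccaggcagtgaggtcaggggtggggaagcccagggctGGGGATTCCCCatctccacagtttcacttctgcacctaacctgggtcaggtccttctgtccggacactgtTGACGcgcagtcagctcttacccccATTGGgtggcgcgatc
H2-D1: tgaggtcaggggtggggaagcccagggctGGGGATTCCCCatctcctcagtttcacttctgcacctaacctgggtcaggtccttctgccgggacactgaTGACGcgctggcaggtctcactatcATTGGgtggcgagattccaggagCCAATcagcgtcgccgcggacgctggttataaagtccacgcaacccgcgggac
Tap1-Psmb9: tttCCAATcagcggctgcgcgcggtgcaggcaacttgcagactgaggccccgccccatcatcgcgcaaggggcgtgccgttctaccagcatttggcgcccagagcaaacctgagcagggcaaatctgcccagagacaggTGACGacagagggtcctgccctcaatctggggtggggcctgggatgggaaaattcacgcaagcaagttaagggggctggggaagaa
Psmb8: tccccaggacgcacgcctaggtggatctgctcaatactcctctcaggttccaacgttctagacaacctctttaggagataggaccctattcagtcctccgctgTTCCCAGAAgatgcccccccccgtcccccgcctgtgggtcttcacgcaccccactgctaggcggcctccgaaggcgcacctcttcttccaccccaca

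The light chain and both heavy chain promoters shared an arrangement. In B2m, H2-K1 and H2-D1 a CRE half-site TGACG was followed after 20 bases by ATTGG, the CCAAT box read on the other strand. This spacing was looked at after the matches were seen, and 26 of 27025 promoters of the same 300-base window had it (0.0962%). The same 3 promoters were the members with an NF-kB match, which 4.35% of all promoters had. H2-K1 and H2-D1 were also identical over 46 bases, from -140 to -95 in H2-K1 and from -200 to -155 in H2-D1, a run that holds the NF-kB match. Because of that shared run their matches are not independent.

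The IRF pattern as searched, GAAANNGAAA, matched in B2m alone, from -139 to -130, where 3.49% of all promoters had a match. Sites that depart from this pattern were not searched for, so its absence does not mean that a promoter lacks an IRF site. Psmb8 alone had a STAT palindrome, from -97 to -89, which 8.47% of all promoters had. Over the whole window a CCAAT box was found in 6 of 8 member promoters (37.9% of all promoters) and a CRE half-site in 5 of 8 (21.0% of all). Tap1 and Psmb9 start 226 bases apart in opposite directions, so their windows share 1 CRE half-site and 1 CCAAT box. A match is a match of letters only and was not tested for binding. For Psmb8, H2-D1 and Psmb9 the printed bases lie inside the gene coordinates given below, which come from another annotation. The window of Tapbp does so too. Bases before those outer starts were not searched.

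In the OE library most of the pathway stood above WT. Of the 10 members, 8 were at least 2-fold higher and 0 were at least 2-fold lower, where 9.74% of the 12896 genes tested were at least 2-fold higher and 3.12% at least 2-fold lower. A gene counted as tested where its 3 libraries averaged 50 normalised counts or more. The median log2 ratio of the members was 1.84, a 3.57-fold difference, against -0.02 over all genes tested. Since the members were chosen by this contrast, the excess over the background is not a finding. Psmb9 and Nlrc5 did not pass the level filter, at means of 46.4 and 37.0, and Psmb8 passed only through the OE library, since its mean over WT and KO was 28.5.

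**Figure D1:**
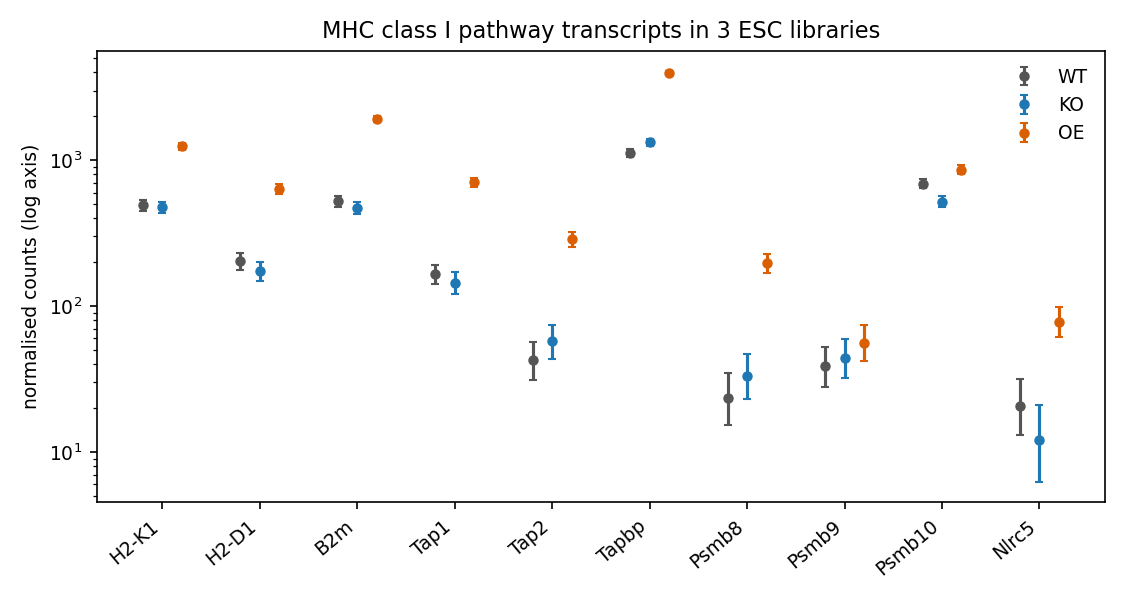
Levels of the 10 MHC class I pathway genes in the WT, KO and OE libraries, in normalised counts on a log axis. Points are single libraries and bars are exact 95% Poisson intervals, which cover counting error only. The OE point lies above the WT and KO points for every gene, by the least for Psmb9 and Psmb10.

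The heavy chains, which hold the peptide and are read by T cell receptors, were both higher in OE. H2-K1 (ENSMUSG00000061232, chr17:33996017-34000347) had 489 normalised counts in WT, 475 in KO and 1243 in OE. Its ratio of OE to WT was 2.54 (2.29 to 2.82) and that of KO to WT 0.970 (0.854 to 1.10). WT and KO lay together and OE apart from both. H2-D1 (ENSMUSG00000073411, chr17:35262730-35267499) showed the same order, with 203, 174 and 633 normalised counts. The H2-D1 ratio was 3.11 (2.66 to 3.66) in OE and 0.855 (0.696 to 1.05) in KO. Near-identical copies limit both values: 9.63% of the 50-base stretches of H2-K1 and 12.8% of those of H2-D1 also occur in other genes, chiefly of the H2 family, and how reads from them were assigned was not tested.

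B2m (ENSMUSG00000060802, chr2:122147686-122153083), the light chain shared by the class I molecules, lies outside the H2 region. It stood at 523 normalised counts in WT, 472 in KO and 1922 in OE. The ratio was 3.68 in OE (3.34 to 4.05) and 0.903 in KO (0.797 to 1.02). B2m was thus also separated from WT in OE only. Patl2 overlaps it on the opposite strand over 5398 bases and went the other way, at 163, 155 and 60.5 normalised counts. Per length, the summed heavy chains H2-K1 and H2-D1 came to 40.4% of B2m in WT, 41.7% in KO and 29.9% in OE, so the light chain was further above the pair in OE.

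Both genes of the transporter were higher in OE. Tap1 (ENSMUSG00000037321, chr17:34187553-34197225), one of the TAP subunits, had 166 normalised counts in WT, 144 in KO and 703 in OE. Its ratio was 4.23 in OE (3.57 to 5.03) and 0.869 in KO (0.692 to 1.09). Tap2 (ENSMUSG00000024339, chr17:34203527-34216321), the partner subunit, stood at 42.5, 57.6 and 287 normalised counts, a ratio of 6.76 in OE (4.91 to 9.49) and 1.35 in KO (0.900 to 2.05). TAP works as a dimer of both. The level of Tap1 per length was 2.70 times that of Tap2 in WT (1.94 to 3.84), 1.73 times in KO (1.27 to 2.40) and 1.69 times in OE (1.46 to 1.96). The 3 intervals overlap.

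Tapbp (ENSMUSG00000024308, chr17:33915899-33929292) codes for tapasin, which bridges TAP and the heavy chain. It had 1119 normalised counts in WT, 1328 in KO and 3932 in OE. The ratio was 3.51 in OE (3.29 to 3.76) and 1.19 in KO (1.10 to 1.29), and it was the only member whose KO interval lay above 1. All 3 libraries were separated beyond counting error. Zbtb22 overlaps Tapbp on the same strand over 3422 bases and stood at 1631, 1866 and 1435 normalised counts, lower in OE than in WT.

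The 3 immunoproteasome subunits, which replace the catalytic subunits of the constitutive proteasome, did not behave alike in OE. Psmb8 (ENSMUSG00000024338, chr17:34197721-34201454) had 23.6 normalised counts in WT, 33.3 in KO and 196 in OE. That was the highest ratio of the 10 members, at 8.29 in OE (5.44 to 13.2), with 1.41 in KO (0.814 to 2.48). Psmb9 (ENSMUSG00000096727, chr17:34181987-34187764) had 38.7, 44.4 and 56.1 normalised counts. Its ratio of 1.45 in OE (0.942 to 2.24) is the only OE interval of a member that includes 1, and in KO it was 1.15 (0.733 to 1.80). Psmb10 (ENSMUSG00000031897, chr8:105935735-105938444) had the lowest OE ratio of the 10, at 1.25 (1.13 to 1.38), from 689, 519 and 858 normalised counts. Its KO ratio of 0.754 (0.672 to 0.845) was the only KO interval of a member below 1.

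Each subunit was also set against the constitutive subunit it replaces, per length and within a library. Psmb8 came to 0.329% of Psmb5 in WT (0.213 to 0.487), 0.740% in KO (0.507 to 1.05) and 2.61% in OE (2.22 to 3.04). Psmb5 lies on the chromosome 14 segment noted above and had a KO ratio of 0.627, which bears on the KO value. Psmb9 came to 0.297%, 0.332% and 0.459% of Psmb6 in WT, KO and OE, with overlapping intervals. Psmb10 came to 21.5% of Psmb7 in WT (19.9 to 23.2), 16.4% in KO (15.0 to 18.0) and 27.5% in OE (25.5 to 29.7). In all 3 libraries Psmb8 and Psmb9 transcripts were thus a few percent of their partners or less, while Psmb10 was at 16.4% or more of its own. The percentages change with the gene length used. The order of the libraries cannot, since the lengths are the same in all 3.

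**Figure D2:**
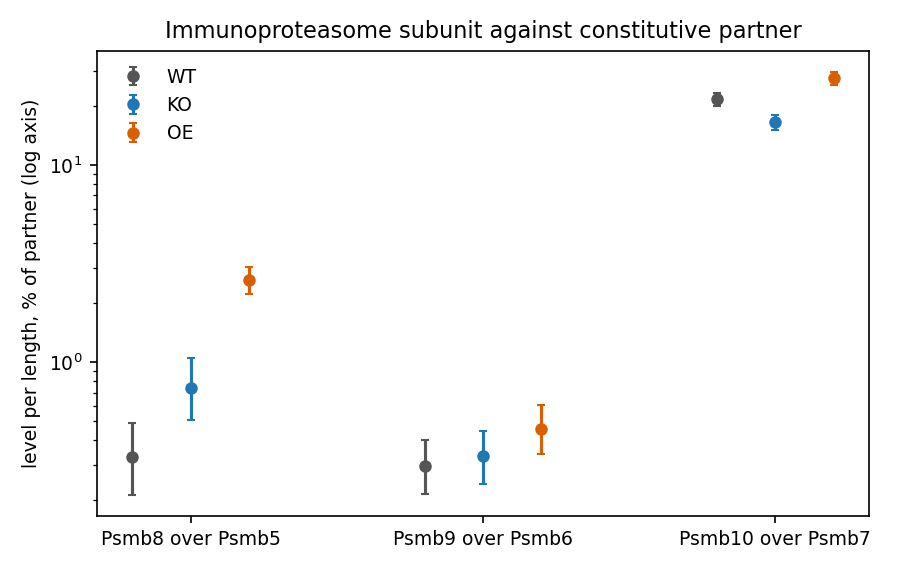
Level per length of each immunoproteasome transcript as a percent of the constitutive subunit it replaces, on a log axis, in the WT, KO and OE libraries. Bars are 95% counting intervals. Psmb8 over Psmb5 runs from 0.329% in WT to 2.61% in OE, while Psmb9 over Psmb6 stays under 0.5%.

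Psmb9 and Tap1 are the members that start back to back, and their OE ratios were far apart. Tap1 per length was 2.87 times Psmb9 in WT (2.03 to 4.14), 2.17 times in KO (1.54 to 3.12) and 8.37 times in OE (6.29 to 11.4). The OE interval overlapped neither of the others. The genes overlap by 212 bases on opposite strands in the annotation.

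Nlrc5 (ENSMUSG00000074151, chr8:94434356-94527272) codes for the class I coactivator and was the rarest member per length in every library. The reads numbered 22 in WT, 12 in KO and 71 in OE, or 20.8, 12.1 and 78.1 normalised counts. The ratio was 3.76 in OE (2.30 to 6.37) and 0.583 in KO (0.263 to 1.23). At this depth the KO difference could not be detected.

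**Figure D3:**
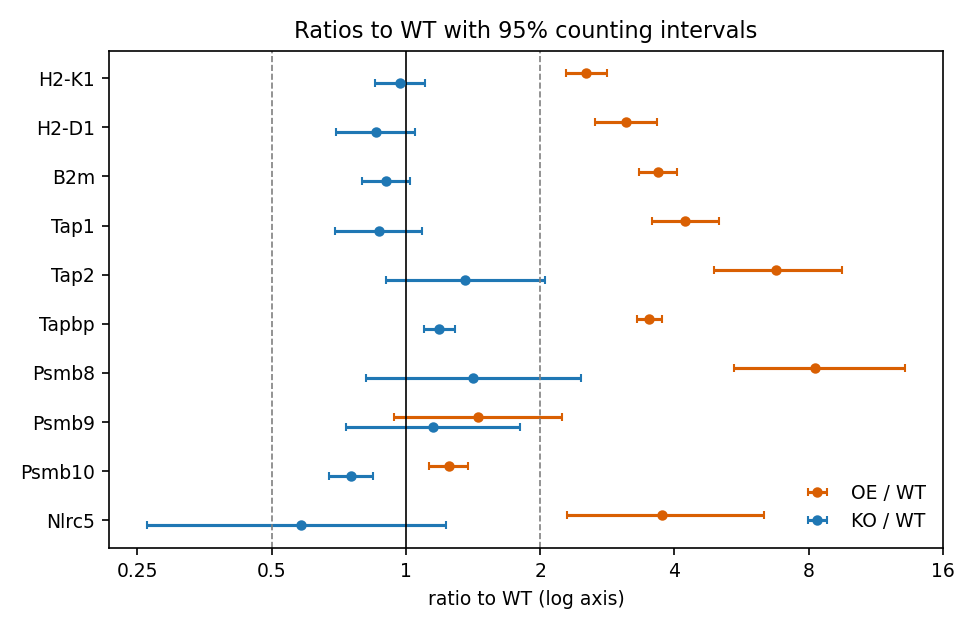
Ratios of OE to WT and of KO to WT for each of the 10 genes, on a log axis with lines at 0.5, 1 and 2. Bars are 95% counting intervals. OE intervals lie above 1 for 9 genes, and KO intervals include 1 for 8 genes.

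In the KO library 0 of 10 members were at least 2-fold higher and 0 at least 2-fold lower, where 2.43% of tested genes were at least 2-fold higher and 3.09% at least 2-fold lower. The median log2 ratio was -0.10, against -0.03 over all genes tested. Ratios ran from 0.583 for Nlrc5 to 1.41 for Psmb8, and only Tapbp and Psmb10 had intervals that left out 1. Psmb10 lies on chromosome 8, whose 590 genes averaging 200 normalised counts or more had a median ratio of 0.848 in KO and 0.881 in OE. Among the 76 such genes within 5 Mb of Psmb10 the medians were 0.816 and 0.895. Relative to its chromosome, the log2 ratio of Psmb10 was -0.17 in KO and 0.50 in OE.

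OE was also set directly against KO, with the same OE library. There 8 of 10 members were at least 2-fold higher in OE, where 12.9% of tested genes were, and the median log2 ratio was 1.94. Ratios ran from 1.26 for Psmb9 to 6.45 for Nlrc5.

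Per length of merged exon, the members spanned a wide range of levels. In WT the order was B2m at 608 normalised counts per kb, Psmb10 at 404, Tapbp at 308, H2-K1 at 167, H2-D1 at 78.8, Tap1 at 30.4, Tap2 at 11.2, Psmb9 at 10.6, Psmb8 at 6.99 and Nlrc5 at 2.45. Neighbours in this order differed beyond counting error except Tap2, Psmb9 and Psmb8, whose intervals overlapped from one to the next. In KO it ran from B2m at 549 over Tapbp at 366, Psmb10 at 305, H2-K1 at 162, H2-D1 at 67.4, Tap1 at 26.4, Tap2 at 15.2, Psmb9 at 12.1 and Psmb8 at 9.86 to Nlrc5 at 1.43. In OE, B2m stood at 2234 per kb, Tapbp at 1084, Psmb10 at 503, H2-K1 at 423, H2-D1 at 245, Tap1 at 128, Tap2 at 76.0, Psmb8 at 57.9, Psmb9 at 15.3 and Nlrc5 at 9.20. Against WT, Tapbp was above Psmb10 in KO and OE, and Psmb8 above Psmb9 in OE. In KO the intervals of Tap2, Psmb9 and Psmb8 again overlapped from one to the next, and in OE the intervals of Tap2 and Psmb8, and of Psmb9 and Nlrc5, overlapped. The order also depends on the gene length used. Per length of the longest transcript, H2-K1 stood at 663 and Psmb10 at 655 in OE, and Psmb8 at 103 and Tap2 at 83.5. In WT and KO the order of Tap2, Psmb9 and Psmb8 changed with that length as well.

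Among all genes tested, the same levels per length can be read as a rank. B2m was above 71.1% of them in WT and 92.7% in OE, and Tapbp above 54.7% and 83.2%. H2-K1 went from 40.4% to 61.9%, H2-D1 from 25.7% to 47.9%, and Tap1 from 12.6% to 32.7%. Psmb8 was above 2.03% in WT and 18.0% in OE. Nlrc5, which did not pass the level filter itself, was above 0.328% and 1.70% of the tested genes. Genes under the filter are left out of this rank, so it does not place Nlrc5 among all transcripts.

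Of the members, 7 lie together in the H2 region of chromosome 17, within 1.35 Mb from 33915899 to 35267499. The other 55 tested genes of that interval, with 100 kb on either side, had a median OE ratio of 0.975. Of them 3 were at least 2-fold higher and 0 at least 2-fold lower, against 9.74% and 3.12% of all tested genes. Those 3, named after their values were seen, were Ltb (77.5, 60.6 and 933 normalised counts in WT, KO and OE), which codes for lymphotoxin beta, Clic1 (1466, 1017 and 5149), an intracellular chloride channel gene, and H2-DMa (37, 67 and 65 reads), a class II peptide loading gene. In KO the median ratio of the 55 was 1.08. Over all 10604 genes averaging 200 normalised counts or more the medians were 0.978 in OE and 0.980 in KO.

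**Figure D4:**
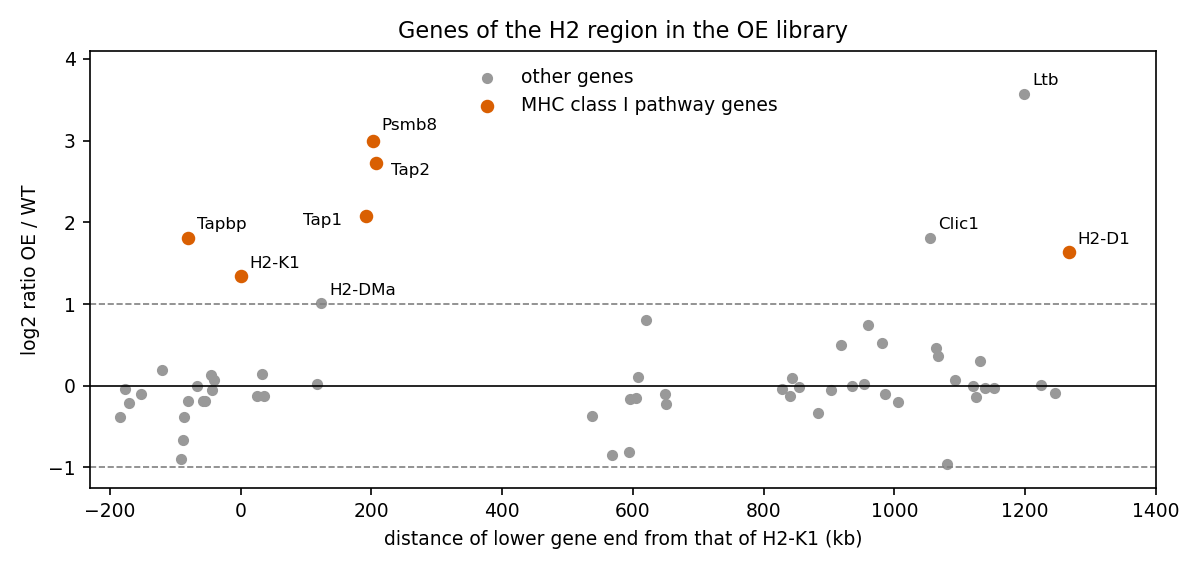
Log2 ratio of OE to WT for tested genes of the H2 region, by distance of the gene's lower-coordinate end from that of H2-K1 in kb. Orange points are the MHC class I pathway genes that passed the level filter (Psmb9 did not), grey points other genes, and dashed lines mark 2-fold. Most grey points lie within 1 of 0, and Ltb is the highest.

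The other class I genes of the H2 region were measured less well. Of 23 listed, 20 were in the table and 7 passed the level filter. In OE 4 of these stood at least 2-fold above WT and 0 at least 2-fold below it, against 9.74% and 3.12% of all tested genes. Their median log2 ratio was 1.10. H2-Q7 stood at 61.4, 54.6 and 282 normalised counts in WT, KO and OE, a ratio of 4.59 (3.48 to 6.12) in OE. H2-Q4 was at 160, 135 and 485 (3.04, 2.54 to 3.65), H2-T22 at 24.6, 48.5 and 108 (4.39, 2.83 to 7.05) and H2-Bl at 65.2, 54.6 and 141 (2.16, 1.60 to 2.94). Of the 4, H2-T22 passed the filter only through its OE level. H2-M2, under the filter, was at 11.3 in WT, 0 in KO and 131 in OE, where the floor of 3 reads is 3.03. H2-M5, with 1757 normalised counts in WT, had a ratio of 0.709 (0.658 to 0.764). In KO 0 of the 7 were 2-fold apart, and H2-T22 was nearest to it at 1.97 (1.20 to 3.31).

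The class I-like genes outside the H2 region were taken separately, and the difference between the lists was not tested. Of 7 tested, 0 stood at least 2-fold above WT in OE and 2 at least 2-fold below it, against 9.74% and 3.12% of all tested genes. The 2 were Fcgrt, the neonatal Fc receptor gene, at a ratio of 0.319 (0.225 to 0.444) and H60b, an NKG2D ligand gene, at 0.378 (0.268 to 0.525). The product of Fcgrt also pairs with beta-2-microglobulin. In KO 2 of 7 were at least 2-fold lower, against 3.09% of all tested genes. They were H60b at 0.205 (0.133 to 0.307) and Procr, the endothelial protein C receptor gene, at 0.451. In OE Procr was just short of 2-fold above WT, at 1.99 (1.53 to 2.61).

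Of all tested genes 9.74% stood at least 2-fold above WT in OE and 3.12% below it by as much. Among 17 further genes of peptide loading and trimming these were 1 and 0, with a median log2 ratio of 0.15. The 1 gene was Erap1, the aminopeptidase that trims peptides in the endoplasmic reticulum. It had 273, 224 and 1406 normalised counts in WT, KO and OE, a ratio of 5.15 (4.53 to 5.87) in OE. The general chaperones of the loading complex were near WT, with ratios of 1.11 for Calr and 0.925 for Canx. Among the 15 constitutive proteasome core genes 0 were 2-fold apart in either library. The 3 with the highest mean normalised counts over the libraries were Psmb2, Psmb6 and Psma1, with OE ratios of 1.06, 0.939 and 0.891. The activator genes Psme1 and Psme2, whose products form the interferon-inducible PA28 cap, had OE ratios of 1.71 (1.59 to 1.83) and 2.24 (2.02 to 2.48). Their KO ratios were 0.629 and 0.700, beside a median of 0.567 for the chromosome 14 segment. A part of that segment in these ratios was not tested.

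Transcription factors known to act on class I promoters were mostly near WT. In OE 3 of 18 tested stood at least 2-fold above WT and 0 below it by as much, against 9.74% and 3.12% of all tested genes. Of the 3, Irf2 passed the level filter only through OE. Irf2, an IRF family member, had 16, 3 and 165 reads in WT, KO and OE, ratios of 12.0 in OE (7.18 to 21.5) and 0.200 in KO (0.0374 to 0.700). Nfkb2, an NF-kB subunit gene, had a ratio of 2.74 (2.52 to 2.98), and Irf1, an activator of class I genes, one of 2.09 (1.94 to 2.25) in OE and 1.51 in KO. With the libraries scaled to housekeeping genes Irf1 fell short of 2-fold in OE, leaving 2 of the 18. Rfx5, whose product binds the X box of class I promoters, had an OE ratio of 1.03 (0.935 to 1.13). In KO Irf2 was the only one of the 18 at least 2-fold lower.

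Among the receptor and signalling genes of interferons, 2 of 10 tested were at least 2-fold higher in OE, against 9.74% of all tested genes. They were Jak2 at 3.29 (2.90 to 3.74) and the interferon gamma receptor chain gene Ifngr2 at 2.14 (1.81 to 2.53). Of 11 interferon genes 0 passed the level filter, and 7 had no read in any library. The interferon-stimulated genes divided. Of 27 tested, 7 were at least 2-fold higher and 3 at least 2-fold lower in OE, with a median log2 ratio of 0.14. In KO 2 were higher and 1 lower, with a median of 0.32. Of all tested genes 9.74% and 3.12% were so in OE, and 2.43% and 3.09% in KO. Of the 7, Cxcl10, Cd274, Gbp3 and Gbp7 passed the level filter only through OE, so the count is no support.

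The genes named by size of ratio were guanylate-binding protein (GBP) genes, which code for GTPases of cell defence, and chemokine genes. Gbp2 stood at 195, 121 and 3987 normalised counts in WT, KO and OE (20.5, 17.8 to 23.7), Gbp3 at 37.8, 42.4 and 316 (8.36) and Gbp7 at 33.1, 38.4 and 266 (8.05). Cxcl10 had 18, 5 and 281 reads (18.2, 11.3 to 31.1). Cxcl11, under the filter, rested on 2 reads in WT and was at 1.89, 0 and 132 normalised counts. Others of both kinds were not higher in OE, with 5, 0 and 1 reads for Gbp5 and 2, 4 and 2 for Cxcl9. The 3 lower ones, named after their values were seen, were the oligoadenylate synthetase genes Oas1a, Oas2 and Oas1g, at 0.371, 0.395 and 0.400. Gbp2, Gbp3 and Gbp7 were thus higher in the same library in which these antiviral genes were lower. Of 3 class II genes tested, Cd74, the invariant chain gene, had a ratio of 2.80 (2.10 to 3.77) in OE and 1.01 in KO. H2-DMa had one of 2.05 in OE and 1.94 (1.28 to 2.98) in KO. Ifi30, a lysosomal thiol reductase gene, had one of 0.956 in OE and 0.581 in KO. In OE H2-DMa fell short of 2-fold when scaled to housekeeping genes. Under the filter, the class II chain gene H2-Ab1 had 7, 7 and 47 reads and the class II transactivator gene Ciita 4, 5 and 1. The class II genes H2-Eb1 and H2-DMb1, also under the filter, were highest in KO, with 16, 77 and 27 reads and 33, 75 and 15 reads.

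**Figure D5:**
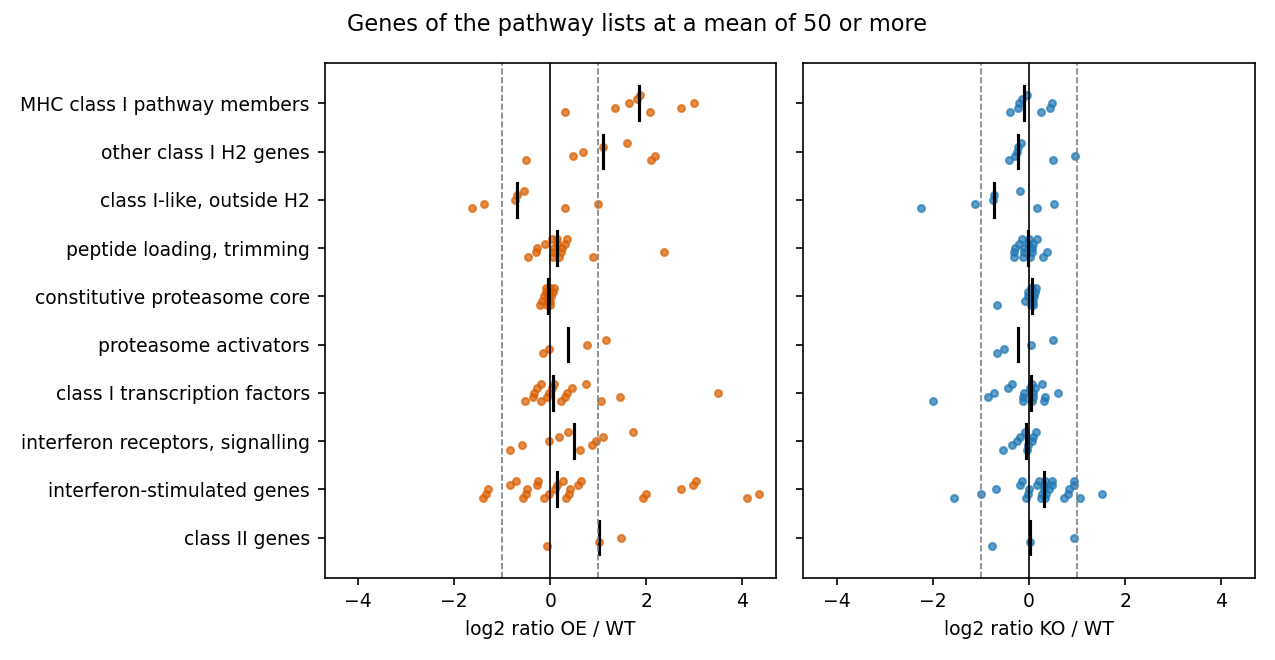
Log2 ratios of OE to WT (left) and KO to WT (right) for genes of each list that passed the level filter of 50 normalised counts. Points are genes, black bars list medians and dashed lines 2-fold. Marker lists are not drawn. In OE the medians of the pathway members and of the other class I H2 genes are 1.84 and 1.10, and in KO no list median reaches 1 in size.

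Marker genes of some cell types differed from WT in OE and in KO, and their part in the class I levels was not tested. Of all tested genes 9.74% were at least 2-fold higher than WT in OE and 3.12% at least 2-fold lower. Of 10 ESC markers 0 were at least 2-fold apart from WT in either library. All 10 were lower in OE than in WT, with a median log2 ratio of -0.38 against -0.02 over all tested genes. In KO 9 of 10 were lower than in WT, with a median of -0.11 against -0.03. The summed level of the ESC markers was 157241 normalised counts in OE, 208595 in WT and 184309 in KO. Of 10 tested trophectoderm markers 7 stood at least 2-fold above WT in OE, with a median log2 ratio of 2.32 that exceeds that of the class I members. Their summed level was 7078 in WT, 5202 in KO and 38114 in OE. Fibroblast markers were at least 2-fold higher in OE for 5 of 10 tested and above WT for all 10, though the interval of Pdgfra (0.826 to 1.64) included 1. Of the genes called, Col3a1 and Dcn here and Cdx2 among the trophectoderm markers passed the level filter only through OE. These counts are thus no support. The fibroblast markers had a median log2 ratio of 1.47 and sums of 55707, 50164 and 77049. Fn1 made up most of these sums, which were 2311, 1597 and 11588 without it. Of the blood cell markers 0 of 4 tested were 2-fold apart, the sums ran from 2461 to 2836, and Lyz2, Tyrobp and Hbb-bs were at 0 in all libraries. Endothelial markers had 1 of 7 tested higher and 2 lower in OE, with sums from 5581 to 6185. In KO 1 of 10 fibroblast and 1 of 10 trophectoderm markers were at least 2-fold higher, and 3 of each lower. Of the endothelial markers 0 of 7 were higher and 1 lower in KO. Over all tested genes 2.43% were at least 2-fold higher in KO and 3.09% lower. Col3a1 and Dcn, among the fibroblast markers so counted in KO, passed the filter only through OE. In bulk RNA, more cells of a kind and more RNA per cell cannot be told apart.

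Outside the lists, the genes whose pair of log2 ratios lay nearest to the members' medians (1.84 in OE, -0.10 in KO) were Car2, Dusp4, Il33, Cdh10 and Ablim1. Nearness was the Euclidean distance on both log2 ratios among 10473 genes averaging 200 normalised counts or more. Car2, a carbonic anhydrase gene, stood at 6467, 6070 and 23207 normalised counts in WT, KO and OE, a ratio of 3.59 in OE. Within a distance of 0.5 there were 164 of these genes.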

How the data were processed

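Total RNA of 3 E14tg2a ESC cultures, 1 library each, was sequenced after ribosomal RNA depletion with a directional kit. Per the submitters' processing notes and the paper, reads were trimmed with Trim Galore, mapped to GRCm38/mm10 with TopHat2 and counted per gene and strand with featureCounts. For the annotation release, nothing is stated in the sources used. The signal values as deposited are gene counts which the authors divided by DESeq2 size factors (1.06 in WT, 0.990 in KO and 0.909 in OE). The methods also name a later scaling by length, which these values do not show. All values (100%) were whole multiples of 1 read within 1e-06, so reads were recovered. No count test was run, since 1 library per condition leaves no residual degrees of freedom, and no p-value was computed. A table of repeat families and a table of 20 genes, with 7 columns of levels and the authors' ratios, were not used.

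Members and lists were chosen with earlier results of these data known. Ratios have exact 95% Clopper-Pearson intervals from the reads of both libraries and levels exact Poisson intervals (scipy 1.17.1), and a floor of 3 reads, less than the upper Poisson bound at 0, was used for counts of 0. It equals 2.83, 3.03 and 3.30 normalised counts in WT, KO and OE. These cover counting error only. Log2 ratios had a pseudocount of 1. Genes averaging 50 normalised counts or more were counted past 2-fold. Lengths and coordinates came from GENCODE M21 on GRCm38, which holds 96.2% of the gene IDs. Promoters were RefSeq windows of 250 bases before to 50 after a start. From each pathway list, up to 5 genes with the largest log2 ratio were named. They were taken from those at least 2-fold from WT that reached 100 normalised counts in their higher library. Where there was none, the 3 highest were named. Marker lists were given as counts and sums, and not all of their 2-fold genes were named. Other names were added as background, as partners of a member or as stated. Alternatives covered scaling (edgeR 4.0.16 TMM, total reads, housekeeping genes, Gapdh), pseudocount, level minimum, fold, chromosome median and gene length. The scripts were tested on simulated data. A result for 1 gene of the transcription factor list is not reported here.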

Additional observations from a re-analysis of the deposited data

How the results depend on the processing

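No paired analysis was possible because each condition has 1 library, and for the same reason no replicate could be left out. The 8 members at least 2-fold higher in OE stayed 8 under each scaling, pseudocount, chromosome adjustment and the 1.5-fold limit, and were 7 at 3-fold. Members at least 2-fold lower in KO were 0, and 1, Nlrc5, at 1.5-fold. Relative to its chromosome the log2 ratio of Nlrc5 in KO was -0.49, short of 1.5-fold. Counts over all genes moved most. Higher and lower in OE, then higher and lower in KO, they were 2049, 1074, 678 and 1107 at 1.5-fold, 715, 114, 149 and 113 at 3-fold, 738, 221, 104 and 213 at a mean of 200, and 4082, 1530, 3005 and 1346 with no minimum. At a mean of 10 they were 1876, 687, 749 and 642. Scalings multiplied OE ratios by 0.945 to 1.03 and KO ratios by 0.947 to 1.01. The housekeeping list without Hprt was added after seeing the data. Of the list counts in OE, scaling to housekeeping genes took class I transcription factors from 3 to 2 and class II genes from 2 to 1. At a mean of 10, other class I H2 genes went from 4 to 7, interferon-stimulated genes from 7 to 11 and fibroblast markers from 5 to 10. Class I-like genes outside the H2 region went from 0 to 1 and endothelial markers from 1 to 2. Over all genes the count higher in OE went from 1256 to 1876. The numbers tested at this minimum were not recorded, so no share stands beside these counts. No log2 ratio of a member to WT reversed under the alternatives run, while parts of the order of levels per length changed with the length used. Nlrc5, Psmb8 and Psmb9 rest on 12 to 71, 25 to 178 and 41 to 51 reads per library, which limits their ratios.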
